A study of Mus musculus with 8 samples.

Results

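The genes described here are 34 genes that defend cells against oxidants and handle glutathione and iron, measured in 4 primary murine pancreatic ductal adenocarcinoma (PDAC) cell lines treated with DMSO or with trametinib, an inhibitor of the kinase MEK (MEKi). They were taken by gene symbol from a list of redox, glutathione, ferroptosis and iron genes, and all 34 were found among the 34478 genes of the normalized count table. The lines, numbered #1, #3, #5 and #10, were derived from pancreatic tumors of genetically engineered mice that carry Ptf1a wt/Cre and Trp53 loxP/loxP, in which Cre under control of the pancreatic gene Ptf1a deletes Trp53. Both groups share this genotype. The MEKi group received trametinib for 48 h, each line at its own IC50, and the DMSO group received the solvent. No dose was given, so doses may differ between lines. Each line gave 1 library per treatment. The labels do not say whether the lines came from separate mice or whether each library was a separate culture, so the p-values below measure the spread between these 4 lines only, and there was no repeat library of a line within a treatment.

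NRF2, the product of Nfe2l2, is a transcription factor that KEAP1 holds in check by marking it for degradation, and that is stabilized when oxidants modify KEAP1. It drives genes through the antioxidant response element (ARE), among them those for glutathione synthesis, the thioredoxin system, ferritin and NADPH-producing enzymes. In pancreatic cancer cells, cystine import and glutathione are known to protect from ferroptosis, a death by iron-dependent lipid peroxidation.

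Totals of the libraries were 30680091 to 36385719 normalized counts, highest in line #5 with DMSO and lowest in line #3 with trametinib. As a check of MEK inhibition, the 8 MAPK output genes examined were all lower with trametinib in limma. Dusp6, an ERK phosphatase induced by ERK signaling, stood at 4992, 5869, 9662 and 7519.8 normalized counts with DMSO and 638, 1094, 2231 and 1278 with trametinib (log2 fold change -2.51, standard error 0.140, adjusted p = 0.00012 in limma), in the order of lines #1, #3, #5 and #10, which is kept throughout. The summed level of 7 epithelial markers was 221215 to 348774 with DMSO and 112485 to 220925 with trametinib, and 5 of the 6 tested were lower, while Epcam was listed at 0 in 6 of 8 libraries. The 9 fibroblast markers summed to 94.7 to 354 with DMSO and 435 to 1249 with trametinib, with Lum listed at 0 in every library and Col1a1 the 1 of 4 tested that rose. The 6 leukocyte markers in the table summed to 150.1 to 241 and 235 to 515, with Csf1r the 1 of 4 tested that rose. The other 3 tested fibroblast markers, the other 3 tested leukocyte markers and the epithelial Cdh1 did not pass the test, and Col1a1 alone held 360.4 to 1110.1 of the fibroblast sum with trametinib. The part of these markers in the results below was not tested. In bulk samples, fewer cells of a type and less RNA per cell cannot be told apart.

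The iron genes are shown with the sequences through which cells are known to sense iron. The iron-responsive element (IRE) is a hairpin with a CAGTGN loop and an unpaired C 5 bases before it, bound by iron regulatory proteins when iron is scarce. In a 5′ untranslated region (UTR) this binding blocks translation, and in the 3′ UTR of Tfrc it protects the transcript from decay. Matches to CNNNNNCAGTGN were searched on the sense strand in GENCODE M21 transcripts (GRCm38), and each is printed 5′ to 3′ with 6 bases before the C, and with the loop bases CAGTG in capitals.
Fth1 5′ UTR, chr19:9982732-9982757, plus strand: ttcctgcttcaaCAGTGcttgaacgg
Ftl1 5′ UTR, chr7:45459782-45459807, minus strand: gtcttgcttcaaCAGTGtttgaacgg
Slc40a1 5′ UTR, chr1:45925468-45925493, minus strand: caacttcagctaCAGTGttagctaag
Tfrc 3′ UTR, chr16:32631219-32631244, plus strand: aattatcggaagCAGTGccttccata
Tfrc 3′ UTR, chr16:32631598-32631623, plus strand: cattatcgggagCAGTGtcttccata
Tfrc 3′ UTR, chr16:32631645-32631670, plus strand: ttttgcctaccaCAGTGtctatatcg
Tfrc 3′ UTR, chr16:32631663-32631688, plus strand: ctatatcggagaCAGTGatctccata
Tfrc 3′ UTR, chr16:32631710-32631735, plus strand: aattatcgggaaCAGTGtttcccata
Fth1, Ftl1 and Slc40a1 had 1 match each in the 5′ UTR and Tfrc had 5 in the 3′ UTR. By the letters alone, 8.88% of the 20414 5′ UTRs and 34.02% of the 20918 3′ UTRs searched, which are of all lengths, held a match, so a match is a description and not a site. The other members with a match in the 5′ UTR were Keap1, with 2, and Txnrd1. In the 3′ UTR, Gclm, Prdx6 and Sod2 had 2 matches each, and Fth1, Gsta4, Keap1, Me1 and Slc7a11 had 1 each.

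The ARE core TGACNNNGC was searched on both strands in RefSeq promoters (GRCm38.p6) running from 250 bases before to 50 after a gene's start. Promoters were found for 28 of the 34 members, and 9 of the 28 held the core, against 13.99% of the 27025 genes with a promoter entry. No entry was found for Hmox1, Gclc, Gsr, Gsta4, Prdx6 and Slc40a1. The 9 matches are printed on the strand of the gene with 10 bases on each side and the core in capitals, where it reads GCNNNGTCA if it lies on the opposite strand, to show which members carry it close to the start.
Nfe2l2, chr2:75704885-75704913, minus strand: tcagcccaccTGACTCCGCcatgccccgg
Srxn1, chr2:152105542-152105570, plus strand: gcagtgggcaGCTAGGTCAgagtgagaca
Me1, chr9:86695902-86695930, minus strand: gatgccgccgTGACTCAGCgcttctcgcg
Gclm, chr3:122245413-122245441, plus strand: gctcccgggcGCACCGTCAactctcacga
Mgst1, chr6:138140461-138140489, plus strand: gcggggcttgGCACGGTCAggaggcgggg
Txnrd1, chr10:82859104-82859132, plus strand: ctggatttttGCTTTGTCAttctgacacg
Prdx1, chr4:116685456-116685484, plus strand: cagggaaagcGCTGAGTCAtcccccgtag
Sod1, chr16:90220696-90220724, plus strand: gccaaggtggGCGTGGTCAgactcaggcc
Mt2, chr8:94172529-94172557, plus strand: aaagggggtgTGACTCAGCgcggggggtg
In Me1, Prdx1 and Mt2 the core overlaps a match to the AP-1 site TGACTCA on either strand, the sequence bound by Fos and Jun proteins. The AP-1 site was found in 6 of the 28 members, Gstp1, Me1, Mt2, Osgin1, Prdx1 and Srxn1, against 5.95% of the genes with a promoter entry. Of the 9 genes with an ARE core, Nfe2l2, Srxn1, Txnrd1, Prdx1 and Sod1 fell with trametinib, Mgst1 rose, and Me1, Gclm and Mt2 did not pass the test.

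With trametinib, 16 of the 34 members fell and 6 rose at an adjusted p under 0.05 in limma, fitted with the cell line as a block over all 15888 genes with a mean of at least 10 normalized counts. The 16 lower members were 47.1% of the 34, and 25.6% of all tested genes were lower. The 6 higher members were 17.6%, and 27.3% of all tested genes were higher. Among the genes that fell were Slc7a11 for cystine import, Gclc and Gss for glutathione synthesis and Gsr for glutathione reduction. The thioredoxin gene Txn1, Nfe2l2 itself, the ferritin heavy chain Fth1 and the transferrin receptor Tfrc fell too. Catalase, heme oxygenase, Mgst1, Osgin1, Aifm2 and the iron exporter Slc40a1 rose. The remaining 12 members did not pass the test. Fold changes are on the log2(normalized count + 1) scale, on which the change of weakly expressed genes comes out too small.

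The median log2 fold change was -0.33 over the members and 0.072 over all tested genes. All members had a mean of 359 or more, and among the 9439 tested genes at or above this level, a comparison chosen after the values were seen, 35.9% were lower and 27.0% higher, with a median of -0.086. In 24 members the 4 lines changed in 1 direction, 19 of them downward. Such agreement between the 4 lines was common, and was seen in 65.6% of all tested genes. The 4 values with trametinib did not overlap the 4 with DMSO in 10 members that were lower (29.4%, against 16.2% of tested genes), namely Nfe2l2, Keap1, Slc7a11, Gclc, Gss, Gsr, Txn1, Sod1, Fth1 and Tfrc. The same held in 3 members that were higher (8.82%, against 15.1%), namely Hmox1, Cat and Aifm2. Fitted without the cell line as a block, 11 members were lower and 3 higher, against 14.8% and 13.9% of all tested genes. The 8 members that lost their call in that fit were Nqo1, Srxn1, Osgin1, Gstp1, Mgst1, Txnrd1, Prdx1 and Slc40a1, with adjusted p from 0.083 for Mgst1 to 0.31 for Nqo1.

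**Figure D1:**
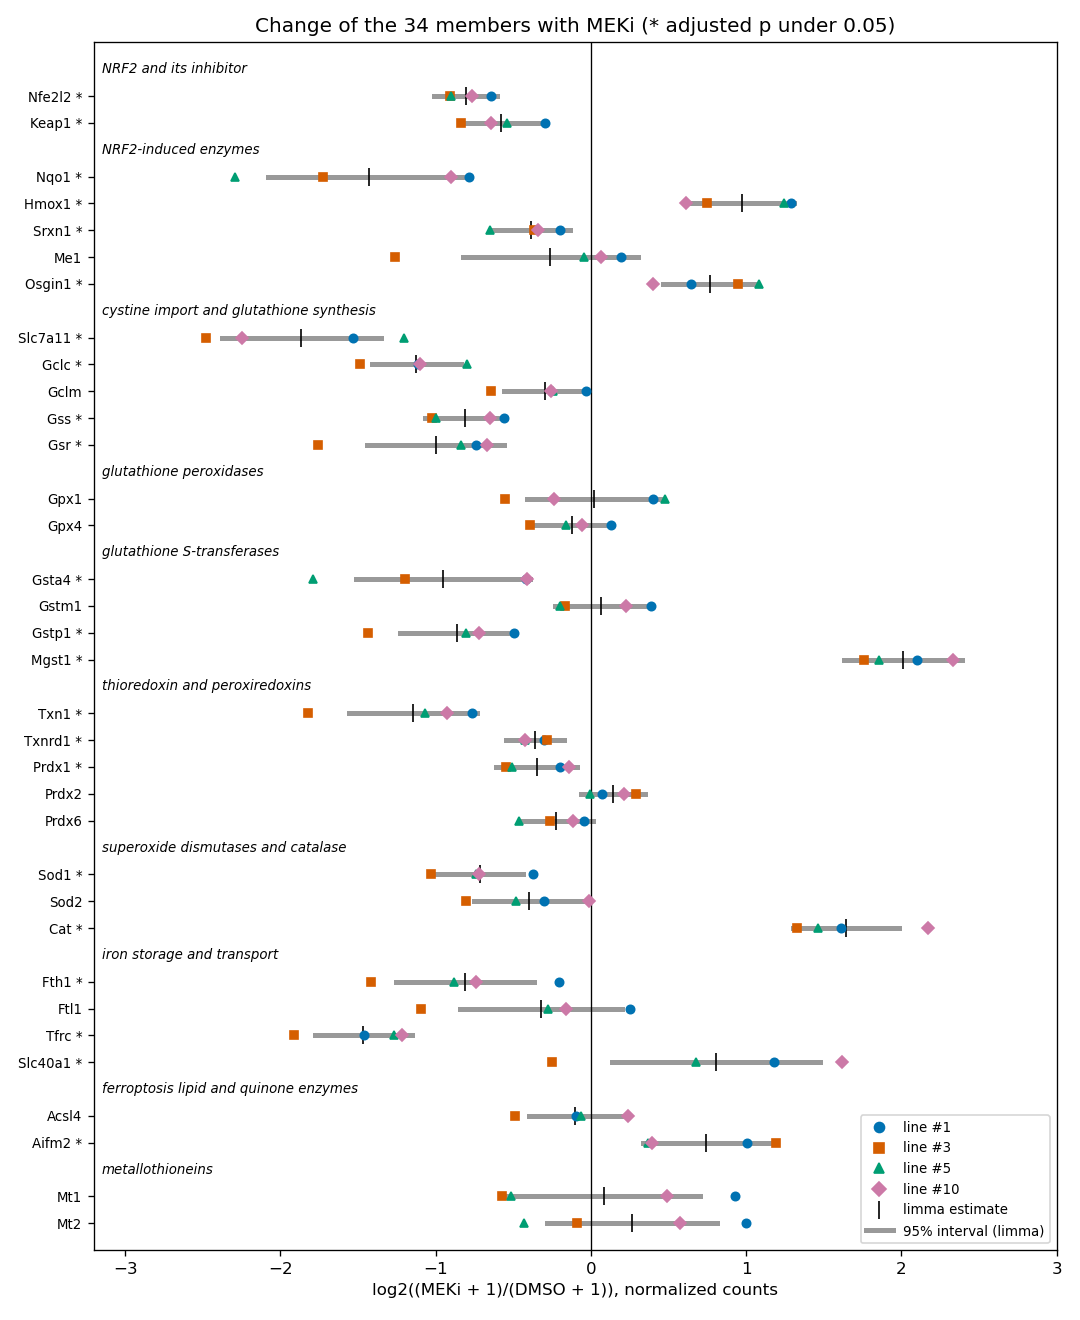
The horizontal axis gives the change with MEKi as log2((MEKi + 1)/(DMSO + 1)) and each row is a member, grouped by role. Colored symbols are the 4 lines, ticks are limma estimates, grey bars are 95% intervals, and asterisks mark the 22 members with an adjusted p under 0.05, from -1.86 for Slc7a11 to 2.01 for Mgst1.

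**Figure D2:**
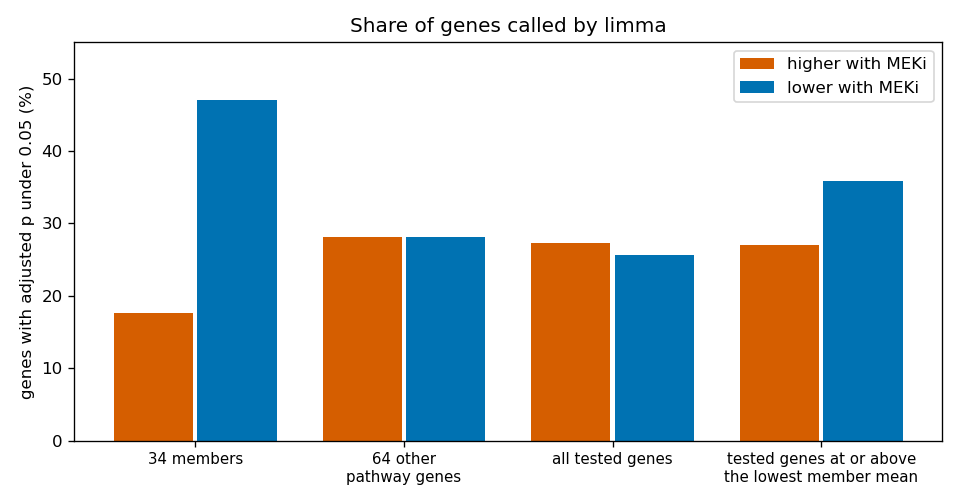
Bars give the percentage of genes that limma called higher or lower with MEKi, for the 34 members, 64 other genes of the same pathways, all tested genes, and tested genes at or above the lowest member's mean. The members have the highest share of lower genes, 47.1%, and the lowest share of higher genes, 17.6%.

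Among the regulators, Nfe2l2 and its inhibitor Keap1 both fell. Nfe2l2 stood at 8639.7, 6304, 7661 and 7919 normalized counts with DMSO and 5519.7, 3362, 4099.8 and 4653 with trametinib (log2 fold change -0.81, standard error 0.0848, adjusted p = 0.00065 in limma). The highest value with trametinib, in line #1, lay below the lowest with DMSO, in line #3. The gene lies at chr2:75675513-75704641 of GRCm38. Keap1 stood at 1852, 2040.1, 2129.8 and 1893 normalized counts with DMSO and 1510.2, 1142, 1466 and 1214 with trametinib (log2 fold change -0.58, standard error 0.110, adjusted p = 0.0049 in limma). The groups did not overlap here either, and line #1 changed least. A change of Nfe2l2 transcript is not a measure of NRF2 protein, which is known to be controlled mainly by degradation.

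Of the 5 enzymes classed as NRF2-induced, 2 rose, 2 fell and 1 did not pass. Nqo1, a quinone reductase widely used as an NRF2 readout, stood at 429, 164, 208 and 1315 normalized counts with DMSO and 248, 48.8, 41.7 and 702 with trametinib (log2 fold change -1.43, standard error 0.273, adjusted p = 0.0050 in limma). It fell in each line, but the level with trametinib in line #10 was above the level with DMSO in the other 3 lines. Srxn1, which repairs over-oxidized peroxiredoxins, stood at 1229, 1045, 1452 and 1731 normalized counts with DMSO and 1072, 809.6, 925 and 1367 with trametinib (log2 fold change -0.39, standard error 0.106, adjusted p = 0.020 in limma). The groups overlapped, and the call was lost without line #5 (adjusted p = 0.085 in limma), without line #10 (0.066) and with libraries rescaled to equal totals (0.068).

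Hmox1, the stress-induced heme oxygenase that frees iron from heme, stood at 854, 885, 619.6 and 1204 normalized counts with DMSO and 2088, 1489.7, 1467 and 1843 with trametinib (log2 fold change 0.97, standard error 0.142, adjusted p = 0.0018 in limma). All 4 values with trametinib lay above all 4 with DMSO. Osgin1, an oxidative stress-induced growth inhibitor, stood at 3113, 921, 3223 and 2412 normalized counts with DMSO and 4868, 1775, 6822 and 3189 with trametinib (log2 fold change 0.77, standard error 0.126, adjusted p = 0.0028 in limma). It rose in each line, and line #3 was lowest in both groups. Me1, the cytosolic malic enzyme that makes NADPH, stood at 10319, 10933, 11798 and 8295 normalized counts with DMSO and 11814, 4567, 11430.5 and 8661 with trametinib (log2 fold change -0.26, 95% interval -0.83 to 0.30, adjusted p = 0.38 in limma). The log2 difference was -1.26 in line #3 and -0.046 to 0.20 in the other 3 lines, and without line #3 the log2 fold change was 0.071.

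Of the 5 genes for cystine import and glutathione synthesis and reduction, 4 fell with no overlap between groups. Slc7a11, the cystine importer of system xc- and the point at which erastin triggers ferroptosis, stood at 2074, 3717, 1919 and 3047 normalized counts with DMSO and 716, 667, 833 and 641 with trametinib (log2 fold change -1.86, standard error 0.215, adjusted p = 0.00086 in limma). By the fit, its level was reduced to 0.275 times that with DMSO, and the 4 values with trametinib spanned a narrow range of 641 to 833, whereas those with DMSO spanned 1919 to 3717. Gclc, the catalytic subunit of the rate-limiting enzyme of glutathione synthesis, stood at 3469, 6035, 4109 and 4629 normalized counts with DMSO and 1604, 2155, 2364 and 2157 with trametinib (log2 fold change -1.12, standard error 0.12, adjusted p = 0.00068 in limma). Line #3 had the highest DMSO level and the largest change. On GRCm38, Slc7a11 lies at chr3:49892526-50443614 on the minus strand and Gclc at chr9:77754535-77794485 on the plus strand.

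Gclm, the modifier subunit of the same enzyme, stood at 4781, 5205, 5582 and 6279.9 normalized counts with DMSO and 4688, 3338, 4703 and 5257 with trametinib (log2 fold change -0.29, 95% interval -0.56 to -0.025, adjusted p = 0.065 in limma). All 4 lines were below their DMSO level but the adjusted p missed the threshold, and it passed with libraries centred on their median (0.018 in limma). Gss, glutathione synthetase, stood at 3542, 2487, 3216 and 3628 normalized counts with DMSO and 2404, 1222, 1611 and 2309 with trametinib (log2 fold change -0.81, standard error 0.110, adjusted p = 0.0014 in limma), with every trametinib value below every DMSO value. Gsr, which reduces oxidized glutathione, stood at 11165, 7796, 8262 and 9771 normalized counts with DMSO and 6694, 2305, 4633 and 6154 with trametinib (log2 fold change -0.999, standard error 0.186, adjusted p = 0.0044 in limma). Its changes per line were -0.74, -1.76, -0.83 and -0.67, with line #3 apart from the rest, and without line #3 the log2 fold change was -0.75.

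The glutathione peroxidases did not pass the test. Gpx4, which reduces lipid peroxides and is the main guard against ferroptosis, stood at 10136, 8411, 11118 and 8427 normalized counts with DMSO and 11105, 6396, 9933 and 8110.5 with trametinib (log2 fold change -0.12, 95% interval -0.37 to 0.13, adjusted p = 0.37 in limma). Gpx1, the abundant cytosolic peroxidase, stood at 4169, 4809, 4491 and 4954 normalized counts with DMSO and 5501, 3284, 6252 and 4205 with trametinib (log2 fold change 0.023, 95% interval -0.41 to 0.46, adjusted p = 0.93 in limma). Lines #1 and #5 were above their DMSO level and lines #3 and #10 below it. The sign of the Gpx4 estimate turned with libraries rescaled to equal totals or quantile normalized, and that of Gpx1 with centring.

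Among the glutathione S-transferases, which join glutathione to reactive compounds, 2 fell, 1 rose and 1 did not pass. Mgst1, a membrane-bound transferase that also reduces lipid peroxides, stood at 77.5, 234, 267 and 31.3 normalized counts with DMSO and 335, 795, 968 and 161 with trametinib (log2 fold change 2.01, standard error 0.159, adjusted p = 0.00032 in limma). By the fit it stood at 4.03 times the DMSO level, and at between 3.40 and 5.16 times in single lines, although the groups overlapped, with DMSO levels that differed between lines by up to 8.53 times. Gsta4, which acts on the lipid peroxidation product 4-hydroxynonenal, stood at 3723, 8672, 7192 and 5207 normalized counts with DMSO and 2791, 3778, 2081 and 3923 with trametinib (log2 fold change -0.95, standard error 0.235, adjusted p = 0.014 in limma). It fell most in lines #3 and #5. Gstp1, the pi-class transferase, stood at 5845, 8146, 2703 and 9118 normalized counts with DMSO and 4139.8, 3015, 1551 and 5536 with trametinib (log2 fold change -0.86, standard error 0.153, adjusted p = 0.0037 in limma), fell in each line and was lowest in line #5 in both groups. Gstm1, a mu-class transferase, stood at 1494, 2293, 1856 and 3855 normalized counts with DMSO and 1955, 2039, 1616 and 4517 with trametinib (log2 fold change 0.062, 95% interval -0.23 to 0.36, adjusted p = 0.69 in limma), with lines #1 and #10 above their DMSO level and lines #3 and #5 below it.

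In the thioredoxin system, 3 of 5 genes fell. Txn1, the cytosolic thioredoxin, stood at 11922, 9123, 11181 and 9184 normalized counts with DMSO and 6999, 2585, 5333 and 4828 with trametinib (log2 fold change -1.15, standard error 0.172, adjusted p = 0.0020 in limma). Every value with trametinib was below every value with DMSO, with the largest fall in line #3. Txnrd1, which recycles thioredoxin with NADPH, stood at 10590.2, 6902, 10717 and 8701 normalized counts with DMSO and 8583, 5670.4, 7985 and 6474 with trametinib (log2 fold change -0.36, standard error 0.0793, adjusted p = 0.0087 in limma). Its log2 differences per line lay between -0.43 and -0.28, and the call was lost without line #10 (adjusted p = 0.055 in limma) and with quantile normalization (0.082).

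The peroxiredoxins reduce hydrogen peroxide with electrons from thioredoxin or, for Prdx6, glutathione. Prdx1 stood at 30763, 22241, 29578 and 23891 normalized counts with DMSO and 26756, 15252, 20822 and 21689 with trametinib (log2 fold change -0.35, standard error 0.109, adjusted p = 0.034 in limma). This was the weakest of the lower calls and was lost in 8 of 14 alternatives, with adjusted p up to 0.60 with quantile normalization, 0.063 without line #1, 0.14 without line #5 and 0.056 without line #10. Prdx2 stood at 9307, 5473, 6949 and 7374 normalized counts with DMSO and 9776, 6691, 6929 and 8531 with trametinib (log2 fold change 0.14, 95% interval -0.065 to 0.35, adjusted p = 0.21 in limma), and was called higher when libraries were rescaled to equal totals (adjusted p = 0.035 in limma) or quantile normalized (0.025). Prdx6 stood at 8621, 8538, 11217 and 10279.5 normalized counts with DMSO and 8363, 7114, 8124 and 9492 with trametinib (log2 fold change -0.22, 95% interval -0.45 to 0.011, adjusted p = 0.097 in limma), below its DMSO level in each line without passing.

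Of the 3 enzymes that clear superoxide and hydrogen peroxide, 1 rose, 1 fell and 1 did not pass. Cat, the peroxisomal catalase, stood at 2156, 2239.8, 2151 and 3971 normalized counts with DMSO and 6594, 5635, 5918 and 17882 with trametinib (log2 fold change 1.64, standard error 0.144, adjusted p = 0.00040 in limma). It rose 2.52 to 4.50 times in single lines with no overlap between groups, and line #10 was highest both with DMSO and with trametinib. The gene lies at chr2:103453849-103485160 of GRCm38. Sod1, the cytosolic superoxide dismutase, stood at 9712, 7734, 9317 and 10964 normalized counts with DMSO and 7509.6, 3796, 5587 and 6665 with trametinib (log2 fold change -0.71, standard error 0.117, adjusted p = 0.0027 in limma), also without overlap. Sod2, its mitochondrial counterpart, stood at 856, 758, 715 and 757 normalized counts with DMSO and 694, 434, 511 and 751 with trametinib (log2 fold change -0.40, 95% interval -0.75 to -0.051, adjusted p = 0.056 in limma), below DMSO in each line with a log2 difference of -0.012 in line #10, and it was called lower without that line (adjusted p = 0.041 in limma), with quantile normalization (0.037) and with centring on the median (0.026).

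**Figure D3:**
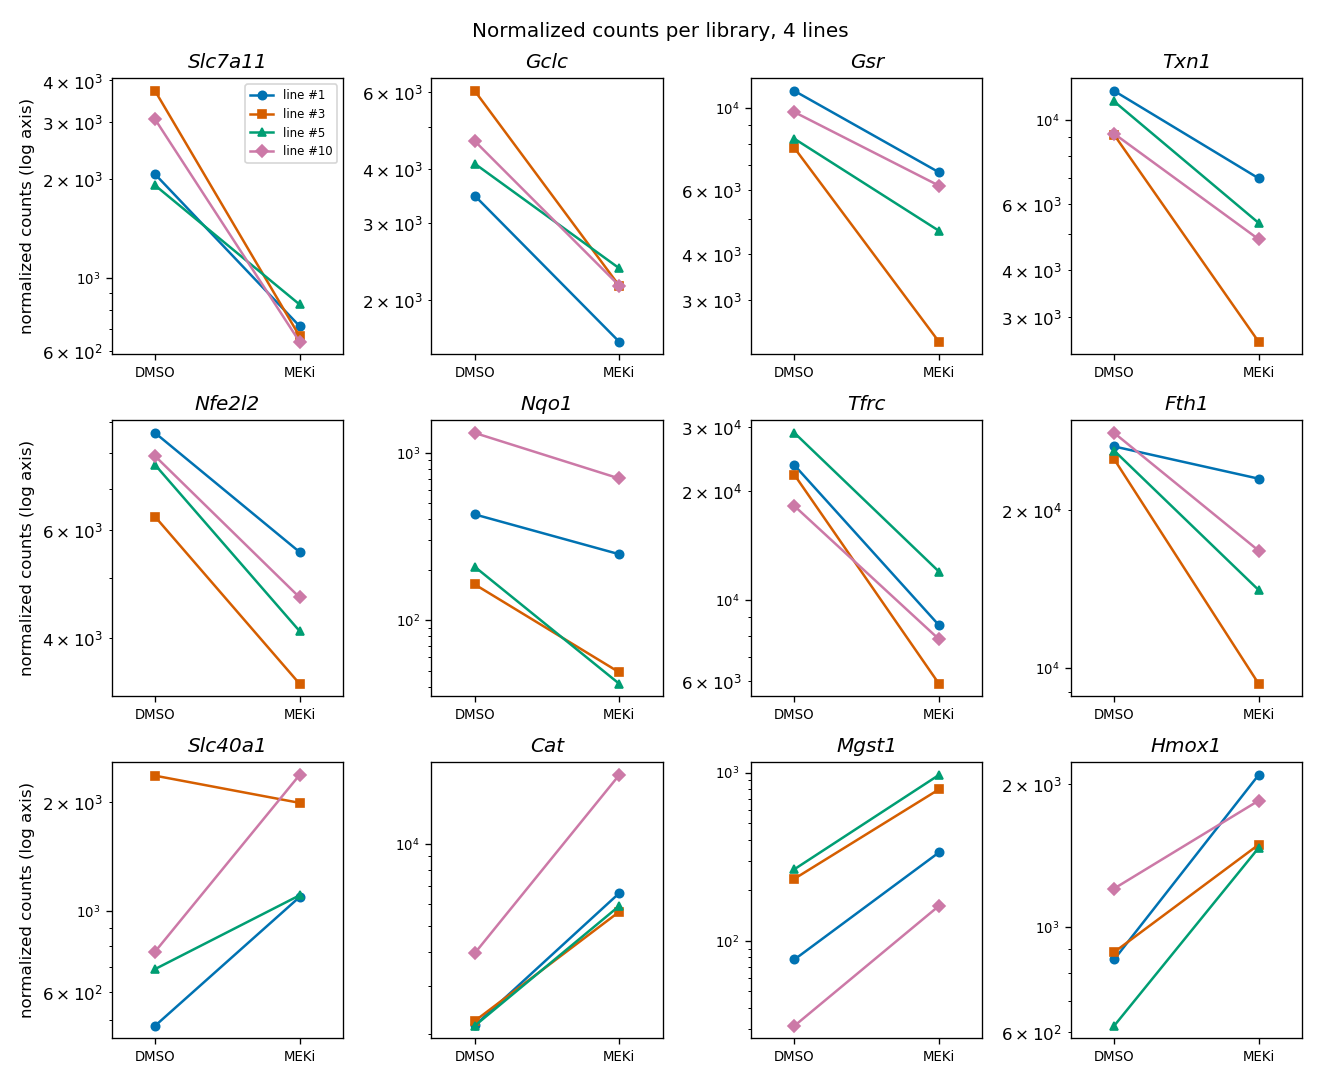
Normalized counts on a log axis for 12 members in each of the 8 libraries, with a line joining DMSO and MEKi of each cell line. Slc7a11, Gclc, Gsr, Txn1, Nfe2l2, Nqo1, Tfrc and Fth1 go down in each cell line, Cat, Mgst1 and Hmox1 go up in each, and Slc40a1 goes up in 3 of 4.

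Of the iron genes, the transferrin receptor Tfrc, which takes up iron, fell most. It stood at 23559, 22161, 28916 and 18191 normalized counts with DMSO and 8547, 5896, 12004 and 7821 with trametinib (log2 fold change -1.46, standard error 0.131, adjusted p = 0.00043 in limma), on chr16:32608920-32632794 of GRCm38. The highest level with trametinib, in line #5, was below the lowest with DMSO, in line #10, and this transcript carries the 5 IRE-type matches printed above. Fth1, the ferritin heavy chain that oxidizes iron for storage, stood at 26367, 24935, 25886 and 27972 normalized counts with DMSO and 22900.0, 9335, 14068 and 16712 with trametinib (log2 fold change -0.81, standard error 0.186, adjusted p = 0.010 in limma). Its DMSO levels differed by only 1.12 times between lines, whereas those with trametinib differed by 2.45 times, with line #1 changing least. The call was lost with quantile normalization (adjusted p = 0.052 in limma).

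Ftl1, the ferritin light chain, stood at 89443, 78682, 116419 and 99846 normalized counts with DMSO and 106634, 36803, 96296 and 89462 with trametinib (log2 fold change -0.32, 95% interval -0.84 to 0.20, adjusted p = 0.26 in limma). It was higher with trametinib in line #1 and lower in the other 3 lines. Slc40a1, ferroportin, the iron exporter, stood at 483, 2366, 693 and 774 normalized counts with DMSO and 1095, 1991, 1107 and 2378 with trametinib (log2 fold change 0.81, standard error 0.280, adjusted p = 0.048 in limma). It was higher in lines #1, #5 and #10 but not in line #3, whose DMSO level was far above the rest. Its call was lost without line #1 (adjusted p = 0.16 in limma), line #5 (0.10) or line #10 (0.16) and in 4 other alternatives, so that it was the least stable of the higher calls. Of these 4 iron genes, all with IRE-type matches, Tfrc and Fth1 fell, Slc40a1 rose and Ftl1 did not pass.

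Of the ferroptosis enzymes, Aifm2, also called FSP1, which regenerates the lipid antioxidant ubiquinol, stood at 462, 583, 566 and 527 normalized counts with DMSO and 929, 1335, 732 and 693 with trametinib (log2 fold change 0.74, standard error 0.170, adjusted p = 0.010 in limma), higher without overlap and by most in lines #1 and #3. Acsl4, which makes the polyunsaturated lipids on which ferroptosis depends, stood at 5508, 4309, 3965 and 2846 normalized counts with DMSO and 5150.3, 3066, 3799.6 and 3364 with trametinib (log2 fold change -0.10, 95% interval -0.40 to 0.20, adjusted p = 0.52 in limma). The log2 difference was -0.49 in line #3 and 0.24 in line #10, and the sign of the estimate turned with equal totals or quantile normalization.

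The metallothioneins Mt1 and Mt2, small proteins that bind zinc and other metals, stood above their DMSO level in 2 lines and below it in 2. Mt1 stood at 3207, 2605, 4526 and 1507 normalized counts with DMSO and 6092, 1751, 3168 and 2113 with trametinib (log2 fold change 0.082, 95% interval -0.54 to 0.70, adjusted p = 0.81 in limma). Mt2 stood at 1900.3, 712, 2949 and 558 normalized counts with DMSO and 3805, 669.7, 2189 and 829 with trametinib (log2 fold change 0.26, 95% interval -0.28 to 0.81, adjusted p = 0.37 in limma). Lines #1 and #10 had more of both transcripts after trametinib and lines #3 and #5 had less, and the difference between lines in the change could not be tested with 1 library per line and treatment. The genes lie next to each other on chromosome 8, and metal is known to induce both through MTF1, which binds the metal response element. Its core was searched as TGCACNC, and in a further form as TGCGCNC, on both strands of the promoters, and was found in 6 of the 28 members, Gclm, Gstm1, Mt1, Mt2, Srxn1 and Tfrc, against 28.23% of the genes with a promoter entry. The last 100 bases before the RefSeq start and the first 50 after it are printed with the matches in capitals, to show the matches in both neighbors. In GENCODE M21 the Mt1 gene begins at chr8:94179082 and Mt2 at chr8:94172664, which is near the end of the stretch printed for Mt2.
Mt1, chr8:94178989-94179138, plus strand: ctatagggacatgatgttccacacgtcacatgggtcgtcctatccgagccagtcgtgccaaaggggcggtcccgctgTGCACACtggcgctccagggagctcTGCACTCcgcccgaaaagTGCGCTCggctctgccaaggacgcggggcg
Mt2, chr8:94172518-94172667, plus strand: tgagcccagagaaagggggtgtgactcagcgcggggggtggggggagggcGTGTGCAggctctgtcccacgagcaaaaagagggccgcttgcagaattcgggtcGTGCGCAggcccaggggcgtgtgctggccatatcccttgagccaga
Mt1 has 3 matches in the printed stretch and Mt2 has 2, with 3 and 4 in the whole promoter.

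The changes of the members are also given by line, without a test. The median log2 fold change of the 34 members was -0.15 in line #1, -0.61 in line #3, -0.47 in line #5 and -0.20 in line #10, where the median over all tested genes was 0.034 to 0.063. Line #3 had the lowest log2 fold change of the 4 lines in 23 of the 34 members, against 37.5% of all tested genes, a count made after the values were seen. Line #5 was lowest in 8 members (21.6% of all tested genes), line #10 in 3 (20.8%) and line #1 in none (20.1%). The share of all normalized counts taken by the members went from 0.837% to 0.490% with trametinib in line #3. It was 0.944% with DMSO and 0.785% with trametinib in line #5, 0.897% and 0.834% in line #10, and 0.875% and 0.906% in line #1. Fth1 and Ftl1 together took 0.150% to 0.392% of all normalized counts in single libraries. Line #3 with trametinib was also the library with the lowest total, and whether this bears on the result was not tested.

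The level itself, apart from the treatment, differed between lines in 12 of the 34 members (35.3%, limma F test over the lines at an adjusted p under 0.05), and 27.6% of all tested genes did so. The 12 were Nfe2l2, Nqo1, Srxn1, Osgin1, Gss, Gstm1, Gstp1, Mgst1, Txnrd1, Prdx2, Cat and Mt2. This test rests on 2 libraries per line, 1 of each treatment, and the count was 6 when the variance was estimated without a trend and 5 to 16 when a line was left out, with 5 without line #10 and 7 without line #1. The share of all tested genes that differed between lines was not counted in these other fits, so whether it moved alike is not known. The widest gaps were in Mgst1 (adjusted p = 0.0017 in limma), lowest in line #10, and in Nqo1 (adjusted p = 0.0051 in limma), highest in line #10. Osgin1 was lowest in line #3 (adjusted p = 0.0038 in limma), Gstp1 was lowest in line #5 (adjusted p = 0.0090 in limma), and Mt2 was highest in lines #1 and #5 (adjusted p = 0.0099 in limma). In Cat and Gstm1 line #10 stood highest in both groups.

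**Figure D4:**
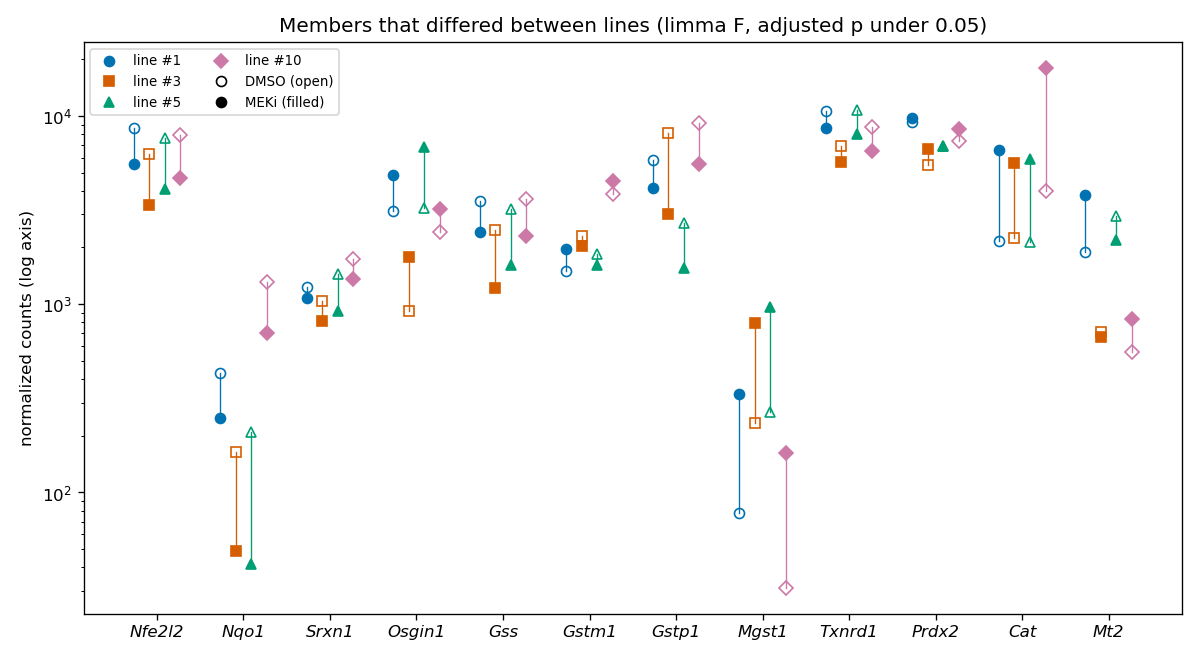
Normalized counts on a log axis for the 12 members whose level differed between lines, with DMSO as open and MEKi as filled symbols joined by a line for each cell line. Mgst1 spans 8.53 times with DMSO and Nqo1 8.04 times, with line #10 lowest in the former and highest in the latter.

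Set against gene length (the union of GENCODE M21 exons), Ftl1 had the highest level of the members with DMSO, 99274 normalized counts per kb, followed by Fth1 at 16874, Sod1 at 14714, Prdx1 at 10463 and Txn1 at 9850.0. Mgst1 was lowest at 83.0, below Sod2 at 132 and Aifm2 at 154. Slc7a11 stood at 273 and Cat at 1006 normalized counts per kb. These are means over 4 lines, with no test between genes.

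Of 66 other genes of the same pathways, 64 passed the filter on low values, which the glutathione peroxidases Gpx2 and Gpx7 did not. Of the 64, 18 were higher and 18 lower (28.1% each), near the shares among all tested genes, and their median log2 fold change was 0.038. These counts were 22 higher and 11 lower with libraries rescaled to equal totals, where 33.5% of all tested genes were higher and 20.6% lower. Without the block they were 9 higher and 10 lower, where 13.9% of all tested genes were higher and 14.8% lower. The lower count was 11 without line #1 or line #10, where 21.3% and 20.8% of all tested genes were lower. The group of NRF2 partners, a repressor, an adaptor and a related factor had 4 of 6 higher and none lower. These were Nfe2l1, the related factor NRF1, with a log2 fold change of 0.99, Bach1, a repressor of ARE genes, at 1.01, Sqstm1, the adaptor that draws KEAP1 into autophagy, at 0.80, and the small Maf protein Mafk at 0.32. The other small Maf genes, Maff at 0.039 and Mafg at 0.00090, did not pass the test. These 6 genes and those of the next 3 sentences were named after their values were seen. The NADPH and other NRF2-linked enzymes had 6 of 13 lower, among them the pentose phosphate enzymes G6pdx at -1.20 and Pgd at -0.99, and 3 higher, among them the epoxide hydrolase Ephx1 at 1.36. The other thioredoxin and peroxiredoxin genes had 4 of 8 lower, including mitochondrial Txn2 at -0.90 and Prdx4 of the endoplasmic reticulum at -0.95. The same group had 1 higher, Sesn2, a stress-induced sestrin, at 0.75. The glutathione turnover genes had 4 higher and 2 lower of 8 tested, the iron uptake, sensing and release genes 4 higher and 1 lower of 11, and the other glutathione S-transferases 2 higher and 2 lower of 8. The ferroptosis enzymes had 1 of 7 lower and the metal response genes 2 of 3, with none higher in either.

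The 5 pathway genes with the largest called change all rose. Tfr2, the second transferrin receptor and a sensor of iron-loaded transferrin, stood at 32.0, 52.0, 82.5 and 160.0 normalized counts with DMSO and 213, 552, 701 and 810.5 with trametinib (log2 fold change 2.87, standard error 0.208, adjusted p = 0.00025 in limma). It rose in each line while Tfrc fell in each. Gstm2, a mu-class glutathione transferase, stood at 66.6, 151, 141 and 96.1 normalized counts with DMSO and 404, 1068, 432 and 408 with trametinib (log2 fold change 2.27, standard error 0.222, adjusted p = 0.00055 in limma). Chac1, which breaks down glutathione in the cytosol, stood at 168, 86.0, 129 and 176 normalized counts with DMSO and 557, 238, 639.8 and 522 with trametinib (log2 fold change 1.76, standard error 0.180, adjusted p = 0.00060 in limma).

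Gstt1, a theta-class transferase, stood at 9.20, 37.6, 24.95 and 13.1 normalized counts with DMSO and 40.9, 85.3, 114 and 47.3 with trametinib (log2 fold change 1.78, standard error 0.278, adjusted p = 0.0023 in limma). Ggt1, which splits glutathione outside the cell, stood at 7.77, 17.0, 1.58 and 24.0 normalized counts with DMSO and 28.1, 63.2, 49.0 and 93.1 with trametinib (log2 fold change 2.44, standard error 0.488, adjusted p = 0.0060 in limma). Both were at low counts with DMSO, so their fold changes are imprecise. Chac2, the relative of Chac1 that also breaks down glutathione, was named after its values were seen and went the other way, at 331, 524, 357 and 415 normalized counts with DMSO and 286, 283, 270.0 and 314 with trametinib (log2 fold change -0.47, standard error 0.152, adjusted p = 0.036 in limma), with no overlap between groups.

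Several members share sequence with near copies, between which the authors' quantification had to divide reads. The share of 31-base stretches of the coding transcript also found in other genes was 85.4% for Ftl1 (mostly with Ftl1-ps1), 67.5% for Gstp1 (Gstp2), 66.8% for Gpx4 (Gpx4-ps2), 35.4% for Sod1 (Gm8566), 34.3% for Gstm1 and 34.2% for Me1, and these values are uncertain for that reason. In the table, Ftl1-ps1 held 26.2 to 189 normalized counts, Gstp2 7.44 to 45.7, and Gm8566 was listed at 0 in 7 of 8 libraries and at 1.91 in the other, all far below Ftl1, Gstp1 and Sod1. Gpx4-ps2, and Gm7049 with which Me1 shares sequence, were not listed. The low values of the copies come from the same division of reads, so they do not show how accurate it was. Prdx1 and Prdx2 share 17.8% and 14.0%, and 18 members share none, Slc40a1, Tfrc, Cat and Gclc among them. Keap1, Me1, Gss, Prdx2, Ftl1, Aifm2 and Mt2 overlap a gene on the opposite strand. The library kit keeps strand, but whether counting used it is not given in the sources used here.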

How the data were processed

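RNA of 8 libraries (4 lines, DMSO and MEKi) was prepared by the authors with a stranded mRNA kit and sequenced as paired reads. The submitters' processing notes name CASAVA 2.17, Salmon 0.12, DESeq2 1.18 and the mm10 build. What the authors deposited is a signal per gene, namely counts normalized between libraries and not whole reads, so no count test was run. A further allele of the mouse model is not reported here. Read depth beyond the library totals is not given in the sources used here.

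Values were transformed as log2(value + 1), with a pseudocount of 1, and genes with a mean of at least 10 were tested with limma 3.58.1 in R 4.3.3 (lmFit, eBayes with trend, cell line as a block, Benjamini-Hochberg adjustment over 15888 genes, threshold 0.05). The line was used as a block because both libraries of a line come from it. Their deviations from the treatment means correlated across genes at 0.631 to 0.724. Line differences were tested with limma's moderated F. The fit was tested on simulated data. Promoters came from RefSeq and transcripts from GENCODE M21, handled in Python 3.11.15 with pandas 2.3.3 and numpy 2.4.6, and plotted with matplotlib 3.10.9. The 34 members are all named, with the 5 largest called changes of the pathway list and Dusp6. Members, lists and tests were chosen with earlier results of these data known. Alternatives were pseudocounts of 0.1 and 5, 3 other scalings, 2 other filters, no block, 2 other variance settings, and leaving out each line.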

Additional observations from a re-analysis of the deposited data

Results flagged for a closer look

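Of 102 groups of 4 values examined (each member in both treatments, and its log2 fold changes over the lines), 6 held a value far from the other 3 by Dixon's test at 95%, where about 5.1 would be expected by chance. The log2 fold change of Me1 in line #3 was -1.26, while the other lines lay at -0.046 to 0.20. That of Gsr in line #3 was -1.76, against -0.83 to -0.67 elsewhere. Gstm1 with trametinib stood at 4517 normalized counts in line #10 and 1616 to 2039 in the other lines. Cat in line #10 was at 3971 with DMSO, against 2151 to 2239.8, and at 17882 with trametinib, against 5635 to 6594. Slc40a1 with DMSO was at 2366 in line #3, against 483 to 774.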

How the results depend on the processing

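Of the 22 members called, 13 kept their call and direction in all 14 alternatives, and none of the 22 reversed. Without the replicate block, 3 members were higher, and 9 pathway genes were higher and 10 lower. In that fit 13.9% of all tested genes were higher and 14.8% lower. With libraries rescaled to equal totals 11 pathway genes were lower, as were 20.6% of all tested genes. With 1 line left out 11 to 17 pathway genes were lower, fewest without line #1 or #10, and 20.8% to 25.5% of all tested genes. Members differing between lines numbered 6 without the variance trend and 5 to 16 with 1 line left out, and this count has no fit without the block, since the line is what it tests. The share of all tested genes differing between lines was not counted in those fits. The cause of these moves was not tested. Fits with 1 line left out rest on fewer libraries.

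Equal totals raised the median of all genes by 0.13 and quantile normalization lowered it, a shift of -0.10, and the higher share of calls went from 51.6% to 61.9% with equal totals. The members were 7 higher and 14 lower under either, and 6 and 18 with centring, where all tested genes were 33.5% higher and 20.6% lower with equal totals, 23.8% and 26.6% with quantile normalization, and 24.2% and 28.3% with centring. Values that changed sign were those of uncalled members: Gpx1 (-0.036 with centring, -0.129 to 0.213 with a line left out), Gpx4 (0.0070 with equal totals, 0.064 with quantile normalization), Acsl4 (0.026 and 0.016 in the same order, -0.216 to 0.028 with a line left out), and, with a line left out, Me1 (-0.414 to 0.071), Gstm1 (-0.047 to 0.149) and Mt1 (-0.200 to 0.300). With 4 lines and 1 library each, small changes such as those of Gclm, Sod2 and Prdx2 cannot be placed firmly on either side of the threshold.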
